A study of Homo sapiens with 12 samples.

Results

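The genes described here encode the proteins of the mitochondrial ribosome. They were chosen by symbol, as the protein-coding genes named MRPL or MRPS followed by a number and, for some, a letter from A to C, and 78 of the 58174 genes in the deposited tables met the rule. Of these, 49 carry an MRPL symbol (large subunit) and 29 an MRPS symbol (small subunit). The symbol is an old name and not a structural assignment. MRPS18A and MRPS30 are placed in the large subunit in structures of the human particle, where they are called mL66 and mL65, and MRPS36 is now known mainly as a part of the 2-oxoglutarate dehydrogenase complex. Members are counted below under the letter of their symbol.

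The mRNA-seq covered 12 libraries from U87 (U-87 MG) and U118 (U-118 MG), which are established human glioblastoma cell lines, with 3 libraries in each of the 4 groups. Control cells, labelled sensitive, were compared with aggregation cells, labelled resistant, which arose from cells treated with 50 μM temozolomide (TMZ), an alkylating drug used against glioblastoma. The methods of the study describe the starting cells of both lines as CD133-CD15- cells, sorted on magnetic columns and kept in medium with serum and BMP2, and state no drug for the control cells. Aggregations are described as rare and as formed after TMZ treatment by a subset of the surviving cells, and whether the drug was present when the RNA was taken is not clear from the sources used here. No source used here says that the 3 libraries of a group came from separate cultures, so p-values measure only the spread between these libraries.

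Mitochondria keep a small genome that encodes core subunits of the respiratory chain, and the mitochondrial ribosome makes those proteins. Its ribosomal RNAs, MT-RNR1 and MT-RNR2, are transcribed inside the organelle, whereas its proteins are encoded in the nucleus, translated in the cytosol and imported. The particle therefore needs the output of nuclear and mitochondrial genes together, and loss of single members causes inherited defects of oxidative phosphorylation. Mitochondrial translation has been studied in glioblastoma as a property on which stem-like cells depend.

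All values are TPM, transcripts per 1000000, a level scaled by transcript length and set to the same total in each library, so that levels can be compared between genes. TPM keeps no read counts, and the depth of the libraries is unknown. Fold changes are differences in log2(TPM + 1), aggregation minus control, which understates the change of low genes, and are given with the standard error (SE) of limma's fit. A member was past the test at a Benjamini-Hochberg adjusted p under 0.05 over all genes tested, and was called when its log2 fold change was also at least 1 in size.

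Several facts of the libraries bear on what follows. VIM and CD44 were high in all 12 libraries, at 4425 to 7149 TPM and 311 to 868 TPM, while the glial markers GFAP, S100B and SOX2 stayed below 1 TPM in each library. NES was at 5.76 to 24.1 TPM, and OLIG2 at 1.45 to 4.45 TPM in U87 and at 0 to 1.05 TPM in U118. Of the TPM total, 12.9 to 16.9% came from mitochondrially encoded genes in the control state of U87, against 22.2 to 23.7% in its aggregation state. The U118 percentages were 7.42, 8.55 and 19.7% in control libraries 1 to 3 and 13.2, 29.9 and 26.1% in aggregation libraries 1 to 3, so control library 3 and aggregation library 1 lay apart from their groups. The median change of all genes tested was -0.24 in U87 and -0.52 in U118, and it was still -0.13 and -0.37 when TPM was recomputed without mitochondrially encoded genes. Changes are therefore also given relative to that median, or after median-ratio scaling, which rescales each library to the middle of its gene-by-gene ratios and left medians of -0.02 and -0.05.

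The libraries labelled U118 aggregation were closer to the U87 libraries than to the U118 control libraries. Over 18525 genes with at least 1 TPM in any library, Spearman's rho between single libraries was 0.902 to 0.918 for U118 aggregation with U87 and 0.821 to 0.845 for U118 aggregation with U118 control. RAC2, from the list of blood cell markers, stood at 0.637 to 0.773 TPM in U118 control, at 486 to 566 TPM in U118 aggregation and at 215 to 271 TPM in U87. DCN, a fibroblast marker, stood at 32.9 to 39.6 TPM in U118 control and at 0.224 to 1.06 TPM in U118 aggregation. The fibroblast list of 7 genes summed to 1240 to 1638 TPM in U118 control and 301 to 674 TPM in U118 aggregation, and the blood cell list of 8 genes summed to 178 to 322 TPM and 784 to 943 TPM. In U87 the fibroblast list went from 240 to 243 TPM to 453 to 539 TPM and the blood cell list from 532 to 613 TPM to 419 to 458 TPM, and the part of these cell markers in the changes below was not tested. Of the blood cell list, PTPRC, CD3E and LYZ were below 1 TPM in each library, and the sum was made up mainly of RAC2 and CD68, a lysosomal protein. In a check for mixed-up samples, 3 of the 12 libraries did not match the control libraries of their labelled line. Every U118 comparison below rests on these libraries, and a response to the drug and a difference in the cells themselves cannot be told apart in it.

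The promoter windows of the members held the YY1 and ETS letters described below more often than those of genes at large. RefSeq windows of 300 bases (GRCh38.p14, from 250 bases before to 50 bases after the annotated start) were at hand for 69 of the 78 members. The 9 letters AAGATGGCG, a core of the site of the transcription factor YY1, were found on either strand in 13 of the 69 members (18.8%) and in 2.14% of 27305 genes. Of the 69, 3 (4.35%) held these letters in the 250 bases before the start, as did 0.784% of all genes, and this count of 3 is small. The letters CCGGAAGT, an ETS site of the kind that GABP binds, were found in 12 of the 69 (17.4%) and in 4.95% of all genes, and CGCATGCG, a core of the NRF1 site, in 3 of the 69 (4.35%) and in 2.46% of all genes. The 27305 genes were all genes with a window, with no filter for coding genes, and the NRF1 count of 3 is small. A match of letters is a description and no evidence of binding, and AAGATGGCG contains an ATG.

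The following stretches of 30 bases show the YY1 letters, in capitals, of the member with the largest rise in U118 (MRPS18A) and of 3 that fell there (MRPS18B, MRPL42 and MRPS10), each written 5′ to 3′ on the strand of its gene.
MRPS18A, chr6:43687763-43687792, minus strand: taggtttttgAAGATGGCGgccctcaaggc
MRPS18B, chr6:30617853-30617882, plus strand: ggcgtacgtcAAGATGGCGgcgtctgtatt
MRPL42, chr12:93467512-93467541, plus strand: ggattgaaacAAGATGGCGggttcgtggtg
MRPS10, chr6:42217833-42217862, minus strand: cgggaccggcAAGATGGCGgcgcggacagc
The letters began at base 10 after the RefSeq start in MRPS18A and MRPS10, at base 9 in MRPL42 and at base 24 in MRPS18B, counting the start as base 1. The paralogues MRPS18A and MRPS18B thus carried the same 9 letters, although their levels moved in opposite directions in U118, as described further on.

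The ETS letters are shown for MRPS22 and MRPL47, which fell in both cell lines. They stood on the opposite strand at 2 places in MRPS22, here with the place before the start, and on the strand of the gene in MRPL47.
MRPS22, chr3:139343904-139343933, plus strand: ggcccggaagACTTCCGGccctttccgcct
MRPL47, chr3:179604658-179604687, minus strand: gcttgagacgCCGGAAGTgacgctatcgtt
In U118 neither MRPS22 nor MRPL47 passed the test after median-ratio scaling (adjusted p = 0.161 and 0.0647 in limma). Among the 12 members with ETS letters, 10 were below 0 in U87 and 11 in U118. Their median log2 fold changes were -0.43 and -0.58, beside -0.24 and -0.52 for all genes tested. Of the 12, 7 fell past the adjusted p in U87 and 4 in U118, beside 29.7% and 39.1% of all genes. Among the 44 members whose windows held none of the 3 motifs, 40 were below 0 in U87 and 31 in U118, with medians of -0.43 and -0.24. Of the 44, 22 fell past the adjusted p in U87 and 13 in U118. The 13 members with YY1 letters had medians of -0.16 and -0.28.

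The 250 bases before the start of MRPS18A (chr6:43687792-43688041, minus strand) and the 119 bases before the earliest annotated start of MRPS18B (chr6:30617590-30617708, plus strand) are given to show the surroundings of this pair, and neither held any of the 3 motifs. That MRPS18B start, chr6:30617709, is the GENCODE release 29 one. The RefSeq start from which its YY1 letters were counted lies downstream, at chr6:30617840, and the bases directly before it are not shown.
MRPS18A: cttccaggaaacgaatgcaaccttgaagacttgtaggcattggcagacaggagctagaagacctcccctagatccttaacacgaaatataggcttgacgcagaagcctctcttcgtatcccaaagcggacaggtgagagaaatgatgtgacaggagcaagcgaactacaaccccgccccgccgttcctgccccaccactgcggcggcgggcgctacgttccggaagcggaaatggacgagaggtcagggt
MRPS18B: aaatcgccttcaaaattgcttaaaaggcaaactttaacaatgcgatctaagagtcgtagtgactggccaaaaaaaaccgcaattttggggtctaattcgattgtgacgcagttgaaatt

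All 78 members were expressed in both lines. They entered every test that used the main filter, at least 1 TPM in 3 or more libraries of a fit. Taken by the mean of a group, levels ran from 3.73 to 393 TPM in U87 control, from 3.09 to 282 TPM in U87 aggregation, from 12.2 to 305 TPM in U118 control and from 4.33 to 341 TPM in U118 aggregation. The medians over members were 67.2, 54.4, 74.8 and 65.2 TPM in the same order. The number of members at 10 TPM or more was 71 to 77 per library in U87 control and 70 or 71 in U87 aggregation, and in U118 it was 78 in each control library and 71 to 76 in aggregation libraries.

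MRPL12, whose bacterial counterpart forms the flexible stalk that recruits translation factors and which also binds the mitochondrial RNA polymerase, had the highest mean over the 12 libraries. Its level was 411, 394 and 372 TPM in U87 control, 281, 288 and 278 TPM in U87 aggregation, 333, 314 and 182 TPM in U118 control, and 307, 376 and 339 TPM in U118 aggregation. The U87 groups did not overlap, and the U118 groups did. MRPL12 fell in U87 (log2 fold change -0.47, SE 0.06, adjusted p = 0.00141 in limma), but not past the adjusted p after median-ratio scaling (-0.21, adjusted p = 0.219), and stood at 0.35 (SE 0.27, adjusted p = 0.3) in U118. It was followed by MRPL51, MRPL37 and MRPS18A. MRPL51 lay at 230.0 to 275 TPM in U87 control and 249 to 269 TPM in U87 aggregation, with a change of 0.09 (SE 0.09, adjusted p = 0.435).

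The members with the lowest means were MRPL42, MRPL1, MRPL50 and MRPS31. MRPL50 was at 5.84, 15.1 and 7.63 TPM in U87 control and 8.14, 8.77 and 9.89 TPM in U87 aggregation. MRPS31 was at 6.89, 16.1 and 11.5 TPM in U87 control and 6.57, 5.45 and 7.45 TPM in U87 aggregation, and neither was past the test (adjusted p = 0.979 and 0.105 in limma). For all 4 of these low members U87 control library 2 held the highest of the 3 control values. The order of the members by level was closest among the U87 groups and U118 aggregation. Spearman's rho over the 78 group means was 0.946 between the U87 groups, 0.937 and 0.922 between U118 aggregation and the U87 aggregation and control groups, 0.851 between the U118 groups and 0.803 and 0.807 between U118 control and the U87 groups. These are descriptions over genes that share libraries.

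Summed over members, the level was lower in U87 aggregation cells and moved within the spread of libraries in U118. The 49 MRPL members summed to 4675, 5003 and 4651 TPM in U87 control and to 3698, 3919 and 3712 TPM in U87 aggregation. The 29 MRPS members summed to 2456, 2479 and 2319 TPM in U87 control and to 1895, 1929 and 1901 TPM in U87 aggregation. In both sums each aggregation library lay below each control library, and the mean of all 78 members went from 7194 ± 262 to 5685.0 ± 142 TPM (SD, n = 3). Counted per 1000000 TPM of nuclear genes, the sums were still apart, at 8505 ± 133 in control and 7399 ± 234 in aggregation. After median-ratio scaling, the difference of the mean log2 sums shrank from -0.34 to -0.08.

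In U118 the MRPL members summed to 5371, 5158 and 3944 TPM in control and to 4738, 3885 and 3999 TPM in aggregation. The MRPS members summed to 2844, 2868 and 2371 TPM in control and to 2435, 2031 and 2127 TPM in aggregation. The groups overlapped in both sums, because control library 3, which had the high mitochondrial share, was low and aggregation library 1, which had the low share, was high. Per 1000000 TPM of nuclear genes the 78 members stood at 8506 ± 555 in control and 8331 ± 92.5 in aggregation, a difference within the spread. On that scale the MRPS sums of all 3 aggregation libraries (2806, 2896 and 2878) lay below those of all 3 control libraries (3072, 3137 and 2954), while the MRPL sums overlapped. The direction of the U118 sum depended on the scaling, at -0.23 in log2 as deposited and 0.33 after median-ratio scaling. The ratio of the MRPL to the MRPS sum was 1.90 to 2.03 over the 6 U87 libraries, 1.66 to 1.89 in U118 control and 1.88 to 1.95 in U118 aggregation.

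**Figure D1:**
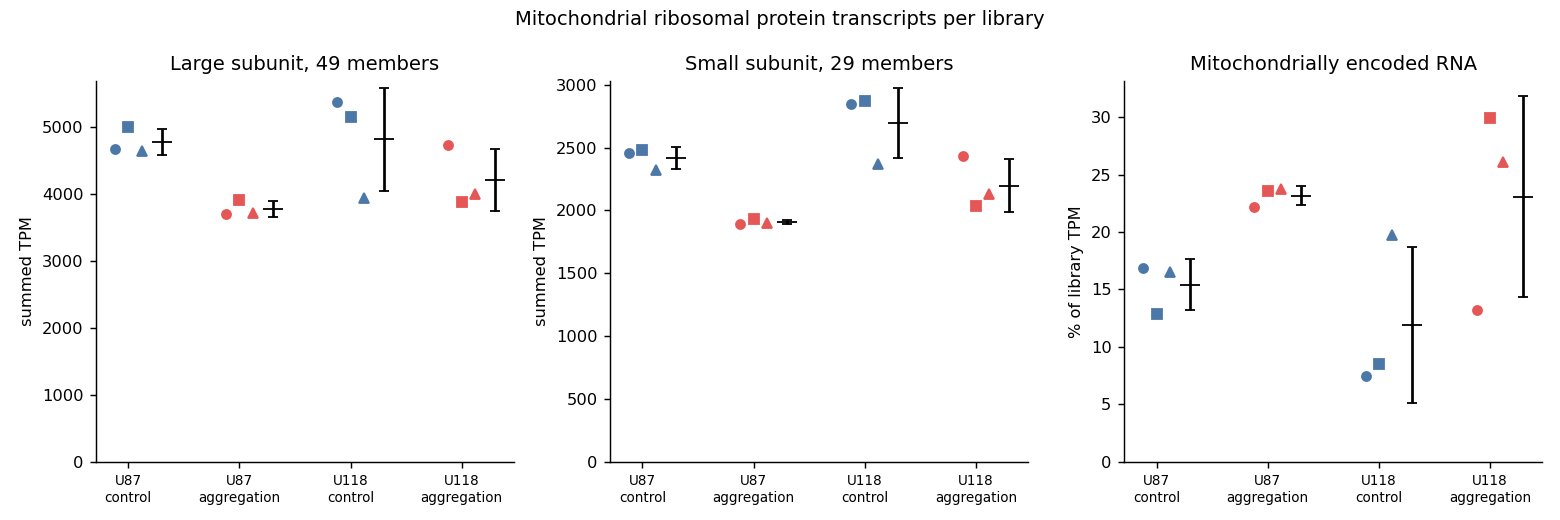
Summed TPM of the 49 MRPL members (left) and the 29 MRPS members (middle) and the percent of library TPM from mitochondrially encoded genes (right), for each of the 12 libraries. Circles, squares and triangles are libraries 1, 2 and 3, and black marks are mean ± SD of 3; U87 aggregation libraries lie below U87 control in both sums, and U118 control library 3 and U118 aggregation library 1 stand apart in all 3 panels.

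In U87, most members were lower in aggregation cells. Of the 78, 67 had a log2 fold change below 0. With limma, 35 fell past the adjusted p, beside 29.7% of all 13845 genes tested, and 2 rose, MRPL44 and MRPS28, beside 9.43% of all genes. The fold threshold left 6 called lower (MRPS26, MRPL57, MRPL55, MRPS25, MRPS17 and MRPL1), beside 7.79% of all genes, and 0 called higher, beside 3.03%, the highest log2 fold change being 0.79. As deposited, the share of members past the adjusted p and lower was above that of all genes, and the share called lower was close to it. When testing was limited to genes averaging 10 TPM or more, 35 members again fell past the adjusted p, beside 37.2% of those genes. Members with a lower average, such as MRPL42, left that fit, so these 35 were out of fewer than 78. The size of the excess over all genes thus depended on the filter, and it was small after median-ratio scaling, as given below. In 41 members all 3 aggregation libraries lay below all 3 control libraries, beside 39.8% of all genes, and in 4 they lay above, beside 13.6%. The median member change was -0.32, which is -0.07 relative to the median of all genes, and it was alike for MRPL members (-0.32) and MRPS members (-0.32). After median-ratio scaling 46 were below 0 and 32 above with a median of -0.06, and 14 fell and 6 rose past the adjusted p, beside 17.2% and 15.7% of all genes.

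The largest fall in U87 was that of MRPS26, a small subunit protein without a bacterial counterpart, encoded at chr20:3045945-3048254. It stood at 65.0, 65.9 and 68.3 TPM in control and 25.6, 25.7 and 25.02 TPM in aggregation. The groups were far apart and each was tight (log2 fold change -1.35, SE 0.08, adjusted p = 8.06e-05 in limma). MRPL57, a large subunit protein without a bacterial counterpart at chr13:21176645-21179084, stood at 25.2, 26.6 and 23.4 TPM in control and 8.64, 9.35 and 9.98 TPM in aggregation. It fell by 1.34 on the log2 scale (SE 0.12, adjusted p = 0.000278 in limma). These 2 members were still called lower in U87 after median-ratio scaling, at -1.09 each. The other 4 then missed the fold threshold but were still past the adjusted p. They stood at -0.93 for MRPL55, -0.92 for MRPS25, -0.86 for MRPS17 and -0.83 for MRPL1 (adjusted p = 0.00167, 0.00115, 0.00307 and 0.0236 in limma).

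MRPL55 fell from 105, 146 and 137 TPM to 64.6, 56.1 and 47.0 TPM (log2 fold change -1.19, SE 0.16, adjusted p = 0.00162 in limma). MRPS25, in which recessive variants cause mitochondrial encephalomyopathy, fell from 41.3, 41.7 and 39.8 TPM to 16.6, 17.8 and 18.2 TPM (-1.18, SE 0.09, adjusted p = 0.000187). MRPS17, the counterpart of bacterial S17, fell from 16.3, 18.4 and 13.4 TPM to 7.40, 6.61 and 6.62 TPM (-1.10, SE 0.15, adjusted p = 0.00177). None of these groups overlapped. MRPL1, the protein of the mobile L1 stalk at the exit site for spent tRNA, went from 6.12, 14.05 and 7.38 TPM to 3.24, 3.42 and 4.29 TPM (-1.06, SE 0.29, adjusted p = 0.026), with control library 2 high. Without control library 3 or any of the aggregation libraries MRPL1 was no longer past the adjusted p (0.0533 to 0.0838).

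MRPL44, which has a ribonuclease III-like fold and in which recessive variants cause cardiomyopathy, rose most in U87. Encoded at chr2:223957404-223967714, it stood at 37.0, 35.6 and 39.1 TPM in control and 66.9, 64.4 and 64.2 TPM in aggregation (log2 fold change 0.79, SE 0.08, adjusted p = 0.000502 in limma). MRPS28 rose from 36.3, 43.8 and 39.8 TPM to 50.2, 59.7 and 50.9 TPM (0.41, SE 0.11, adjusted p = 0.0245), again with no overlap, and did not pass without control library 1 or 3 or aggregation library 2 or 3 (adjusted p = 0.0557 to 0.082). After median-ratio scaling MRPL44 was at 1.05 and was the only member called higher in U87.

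Of the 5 largest positive values in U87, the other 3 did not pass the test. MRPS14, whose value was above that of MRPS28, was at 7.68, 12.97 and 13.3 TPM in control and 15.8, 13.8 and 17.7 TPM in aggregation (0.47, SE 0.22, adjusted p = 0.133 in limma). MRPL45, which lies at the tunnel exit and holds the ribosome at the inner membrane, was at 47.2, 47.9 and 57.3 TPM and 60.0, 60.6 and 59.5 TPM (0.24, SE 0.10, adjusted p = 0.0911). In both, every aggregation library was above every control library, by a small margin. MRPL2, a core protein near the peptidyl transferase centre, was at 44.9 to 56.2 TPM in control and 55.2 to 59.4 TPM in aggregation (0.21, SE 0.10, adjusted p = 0.154). MRPL34, the counterpart of bacterial L34, had the widest spread of the members in U87, at 114, 37.5 and 35.8 TPM in control and 16.0, 95.0 and 29.9 TPM in aggregation (-0.57, SE 0.70, adjusted p = 0.561), so no change of its level could be read.

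MRPS16, MRPS22 and MRPS30, which were described for their disease links or roles, also fell in U87. MRPS16, the counterpart of bacterial S16, in which a nonsense variant causes a fatal neonatal defect of mitochondrial translation, fell from 92.9, 87.3 and 91.1 TPM to 49.5, 53.5 and 42.5 TPM (log2 fold change -0.89, SE 0.10, adjusted p = 0.000817 in limma). MRPS22, in which variants cause cardiomyopathy and ovarian failure, fell from 26.4, 42.6 and 33.8 TPM to 18.0, 18.8 and 19.6 TPM (-0.81, SE 0.17, adjusted p = 0.0102). MRPS30, also known as a programmed cell death protein, fell from 41.6, 60.6 and 48.1 TPM to 35.3, 34.8 and 38.5 TPM (-0.44, SE 0.14, adjusted p = 0.0482). In these 3 the groups did not overlap. MRPS30 was past the adjusted p without control library 1 and not when any other library was left out (0.0734 to 0.134), nor after median-ratio scaling (-0.18, adjusted p = 0.292). MRPL41, reported to bind the apoptosis regulator BCL2, was at 121 to 141 TPM in control and 111 to 118.2 TPM in aggregation and did not pass (-0.22, SE 0.08, adjusted p = 0.0763).

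In U118, most members were also lower in aggregation cells, in smaller shares than genes at large. Of the 78, 55 had a log2 fold change below 0. With limma, 21 fell past the adjusted p, beside 39.1% of all 15527 genes tested, and 2 rose, MRPS18A and MRPL23, beside 12.2%. The fold threshold left 12 called lower, beside 26.6% of all genes, and 1 called higher, MRPS18A, beside 8.64%. In 25 members all 3 aggregation libraries lay below all 3 control libraries, beside 42.9% of all genes, and in 7 they lay above, beside 15.7%. The median member change was -0.36, which is 0.17 relative to the median of all genes, with -0.32 for MRPL members and -0.49 for MRPS members. After median-ratio scaling 31 were below 0 and 47 above, with 8 lower and 17 higher past the adjusted p, beside 25.1% and 23.3% of all genes. Between these scalings 24 of the 78 members changed sign.

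The U118 counts moved with the libraries left in, above all with aggregation library 1. Without control library 2, aggregation library 2 or aggregation library 3, 13 members fell past the adjusted p in place of 21. The share of all genes that fell was also lower in these fits, at 23.4%, 29.9% and 28.2% in place of 39.1%. Without aggregation library 1, 40 members fell and 7 rose past the adjusted p, beside 58.8% and 10.4% of all genes in the same fit. Without that library and control library 3 together, which leaves 2 against 2, 55 fell and 8 rose, beside 58.9% and 12.6% of all genes, and the relative median was 0.02 in place of 0.17. The members' share of lower genes was below that of all genes in the first of these fits and above it in the second. The part of the mitochondrial share in these counts was not tested.

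**Figure D2:**
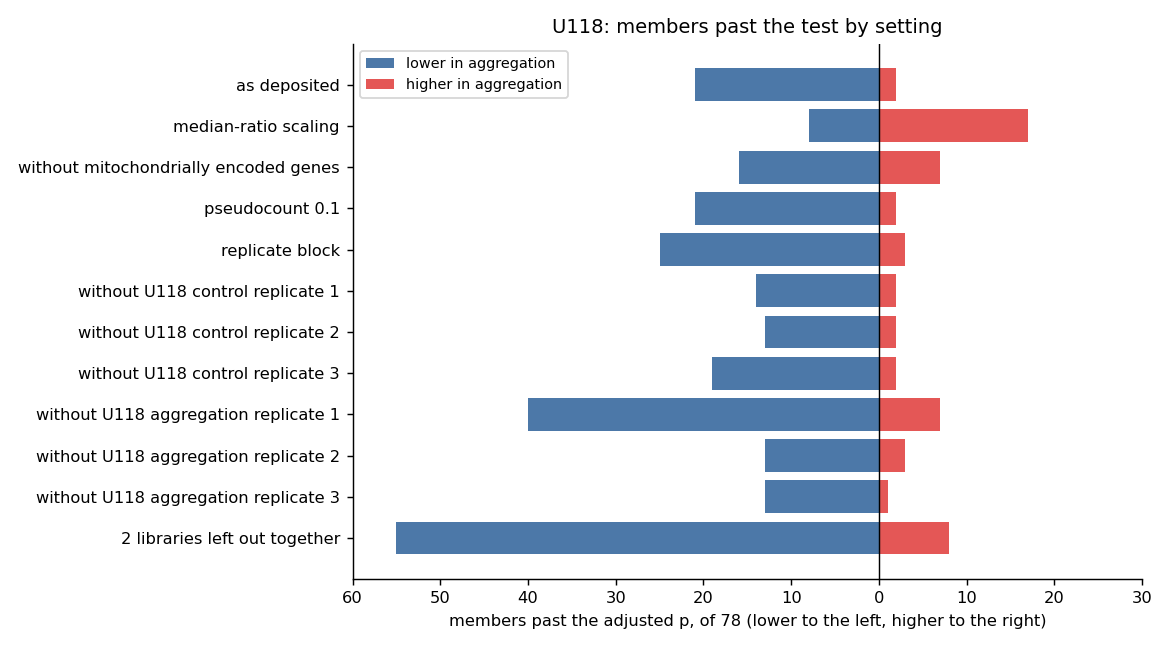
Number of the 78 members past the adjusted p in U118 under each setting, with members lower in aggregation drawn to the left of 0 and members higher to the right. As deposited 21 were lower and 2 higher, after median-ratio scaling 8 and 17, and without the 2 libraries whose mitochondrial share lay apart 55 and 8.

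MRPS18B, a small subunit protein at chr6:30617709-30626395, fell most in U118. It stood at 249, 238 and 188 TPM in control and 79.3, 61.8 and 65.8 TPM in aggregation, with a wide gap (log2 fold change -1.69, SE 0.21, adjusted p = 0.000238 in limma). In U87 it stood at 112, 101 and 105 TPM and 99.4, 88.9 and 96.6 TPM (-0.16, SE 0.08, adjusted p = 0.157). The U118 aggregation libraries thus lay below all U87 libraries and the U118 control libraries above them, with the lines in separate tables and this not tested.

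Its paralogue MRPS18A, a large subunit protein by structure and encoded at chr6:43671303-43687791, rose most in U118. It stood at 122.9, 136 and 113 TPM in control and 209, 309.8 and 295 TPM in aggregation (1.10, SE 0.22, adjusted p = 0.00339 in limma), with aggregation library 1 the lowest of its group and still above every control library. In U87 its level was 209.7 to 229 TPM in control and 224 to 242 TPM in aggregation (0.09, SE 0.07, adjusted p = 0.305). The third paralogue, MRPS18C, the closest counterpart of bacterial S18, stood at 54.4, 50.3 and 51.1 TPM in U118 control and 43.7, 19.3 and 21.6 TPM in U118 aggregation (-0.95, SE 0.30, adjusted p = 0.0275), and was past the adjusted p only while all libraries were in or aggregation library 1 was out (0.0707 to 0.0977 without another). Without aggregation library 1 these changes were -1.79, 1.28 and -1.30 for MRPS18B, MRPS18A and MRPS18C. After median-ratio scaling MRPS18B stayed at -1.13 and MRPS18A at 1.66, both past the adjusted p, whereas MRPS18C was at -0.41 and no longer past it (adjusted p = 0.0929).

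**Figure D3:**
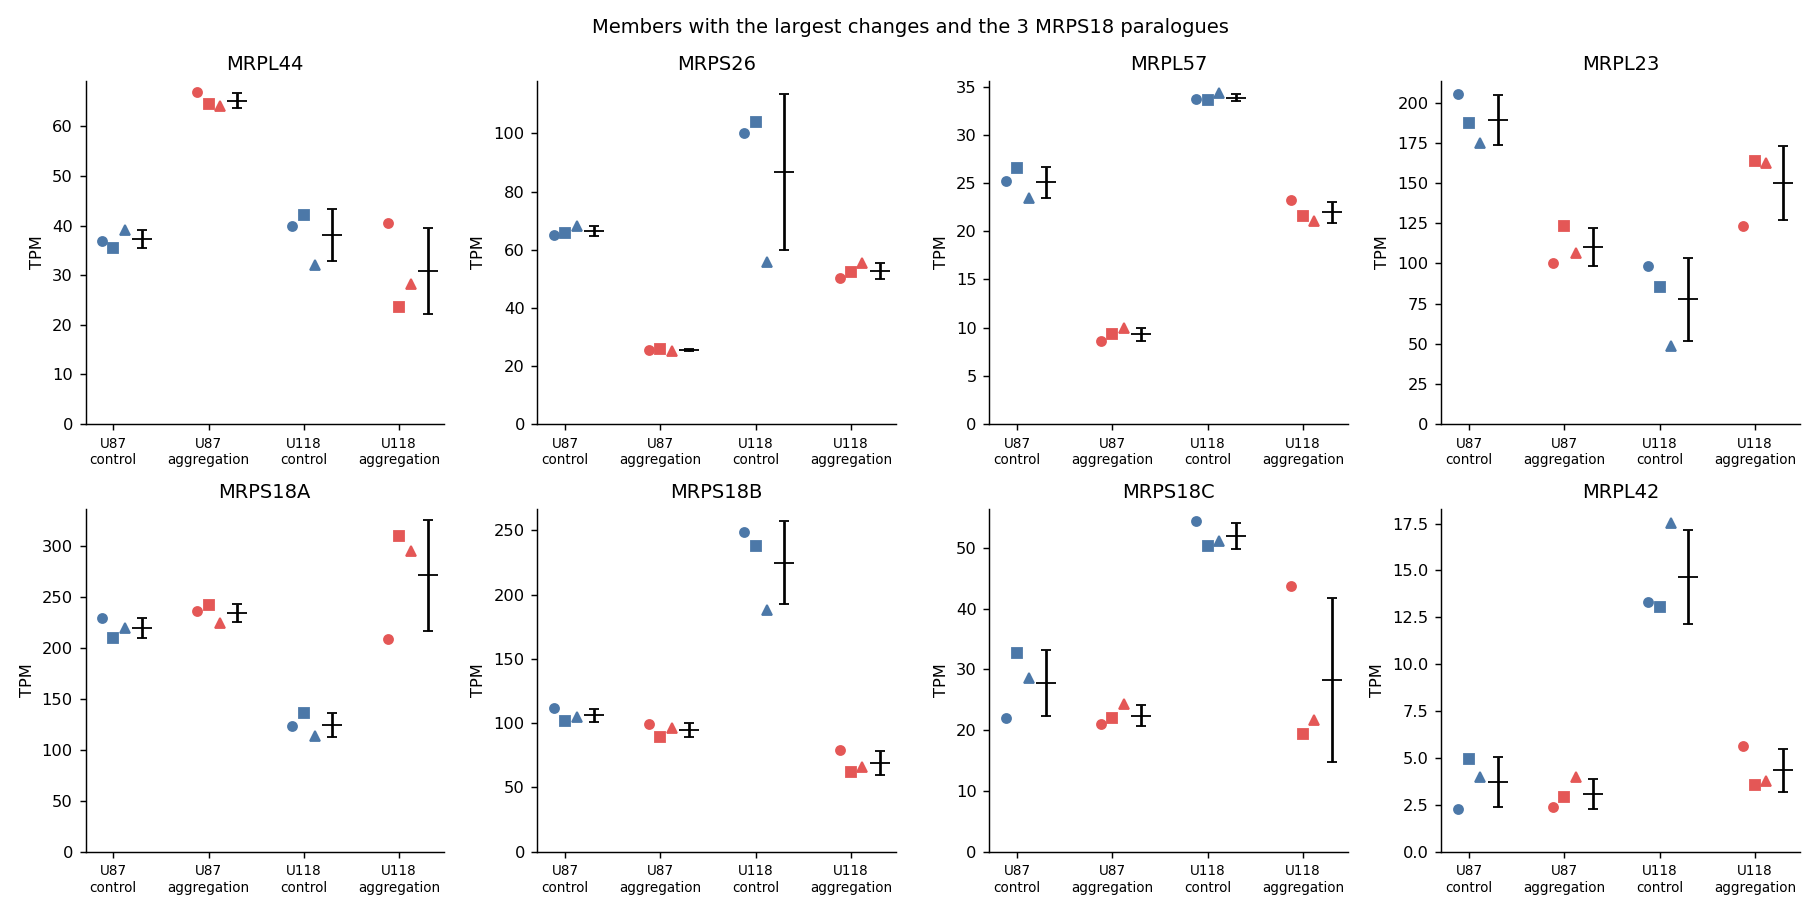
TPM of 8 members in each of the 12 libraries, with control libraries in blue and aggregation libraries in red. Circles, squares and triangles are libraries 1, 2 and 3, and black marks are mean ± SD of 3; MRPS18A is higher and MRPS18B lower in U118 aggregation, MRPL23 moves in opposite directions in the 2 lines, and U118 aggregation library 1 is apart from the other two for MRPS18C.

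MRPL42, MRPL48, MRPL1 and MRPS9 had the next largest falls in U118. MRPL42 fell from 13.3, 13.1 and 17.5 TPM to 5.64, 3.57 and 3.78 TPM (log2 fold change -1.56, SE 0.26, adjusted p = 0.00108 in limma), while in U87 it stayed between 2.29 and 4.94 TPM in all 6 libraries. MRPL48 fell from 49.3, 41.3 and 44.8 TPM to 21.5, 12.4 and 13.1 TPM (-1.51, SE 0.25, adjusted p = 0.0013). MRPL1 fell from 15.9, 12.8 and 17.2 TPM to 5.94, 5.40 and 4.58 TPM (-1.37, SE 0.23, adjusted p = 0.00139). In all of them the aggregation libraries lay below the control libraries, with library 1 of MRPL48 nearest to control. MRPS9, the counterpart of bacterial S9 whose tail reaches the decoding site, fell from 47.0, 46.0 and 54.4 TPM to 23.5, 18.5 and 16.6 TPM (-1.30, SE 0.22, adjusted p = 0.00127), and MRPS17 fell from 21.9, 16.7 and 13.9 TPM to 10.1, 4.52 and 5.76 TPM (-1.29, SE 0.31, adjusted p = 0.00846). MRPL42 and MRPS18B were the members still called lower after median-ratio scaling.

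MRPL23, the counterpart of bacterial L23 at the mouth of the exit tunnel, rose in U118. Encoded at chr11:1947278-1984522, it stood at 98.4, 85.6 and 48.8 TPM in control and 124, 164 and 163 TPM in aggregation (log2 fold change 0.99, SE 0.29, adjusted p = 0.0182 in limma), and 0.93 (adjusted p = 0.06) without aggregation library 3. The 3 next largest values did not pass the test as deposited, and after median-ratio scaling all 3 did, at 1.23 for MRPS33, 1.17 for MRPS12 and 1.04 for MRPL38 (adjusted p = 0.00218, 0.0212 and 0.015 in limma). MRPS33 was at 46.8 to 48.8 TPM in control and at 145, 53.5 and 61.0 TPM in aggregation (0.68, SE 0.35, adjusted p = 0.128), so its value rested on aggregation library 1. MRPS12, which lines the decoding site, was at 143, 128 and 57.2 TPM and 169, 151 and 149 TPM (0.61, SE 0.33, adjusted p = 0.149), a value that rested on control library 3 and was 0.14 without both libraries. MRPL38 was at 57.6, 61.5 and 49.3 TPM and 68.3, 80.5 and 89.7 TPM (0.49, SE 0.21, adjusted p = 0.0744), and passed without aggregation library 1 (0.59, adjusted p = 0.0131).

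The changes of some members differed between the lines past the test, in a smaller share than among all genes. Of the 78, 47 were below 0 in both lines, 3 above 0 in both and 28 of opposite sign. Past the adjusted p, 35 fell in U87 and 21 in U118, beside 29.7% and 39.1% of all genes. Of these, 9 fell in both lines (MRPL1, MRPL28, MRPL47, MRPL48, MRPL57, MRPS5, MRPS17, MRPS22 and MRPS34). The share of all genes that fell in both lines was not computed, so the 9 are not read as a shared response. MRPL23 fell in U87 and rose in U118, and 28 passed in neither. After median-ratio scaling, 2 of the 9, MRPL1 and MRPS17, were still past the adjusted p in both lines. MRPL57 and MRPS22 no longer passed in U118 when any library but aggregation library 1 was left out (adjusted p = 0.0553 to 0.142 and 0.0561 to 0.118). Across the 78 members, Spearman's rho between the changes of the 2 lines, which share no library, was 0.08, given as a description. The interaction term of limma over all 12 libraries was past the adjusted p for 22 members, beside 38.1% of the 16382 genes tested, with the U118 change more negative in 12 and more positive in 10. After median-ratio scaling it was past for 29, with 7 more negative and 22 more positive, beside 20.2% and 22.2% of all genes. Without U118 aggregation library 1 it was past for 37, where 36.4% of all genes were more negative and 16.0% more positive. Without U118 aggregation library 3 it was past for 14, where these shares were 18.5% and 13.7%.

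MRPL23 differed most. It went from 206, 188 and 175 TPM to 100.5, 123.2 and 106 TPM in U87 (log2 fold change -0.78, SE 0.10, adjusted p = 0.00139 in limma), against the rise in U118, a difference of 1.77 (SE 0.32, adjusted p = 0.000859). MRPS18B differed by -1.53 (SE 0.21, adjusted p = 8.68e-05) and MRPS18A by 1.01 (SE 0.22, adjusted p = 0.00306). MRPS2, the counterpart of bacterial S2, fell in U87 from 115, 100.1 and 93.9 TPM to 51.6, 53.3 and 66.6 TPM (-0.84, SE 0.13, adjusted p = 0.00253). In U118 it stood at 57.6, 60.2 and 48.7 TPM in control and 62.4, 79.2 and 78.9 TPM in aggregation (0.40, SE 0.21, adjusted p = 0.137, and 0.95 with adjusted p = 0.0242 after median-ratio scaling), a difference between lines of 1.24 (SE 0.23, adjusted p = 0.00089). MRPL44, the member that rose most in U87, stood at 39.9, 42.0 and 32.1 TPM in U118 control and 40.4, 23.7 and 28.2 TPM in U118 aggregation, a difference of -1.11 (SE 0.26, adjusted p = 0.00494). MRPL37 also differed, at 251 to 257 TPM in U87 control and 170.1 to 196 TPM in U87 aggregation, against 202 to 235 TPM and 233 to 281 TPM in U118, where its groups overlapped (0.70, SE 0.18, adjusted p = 0.00773).

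**Figure D4:**
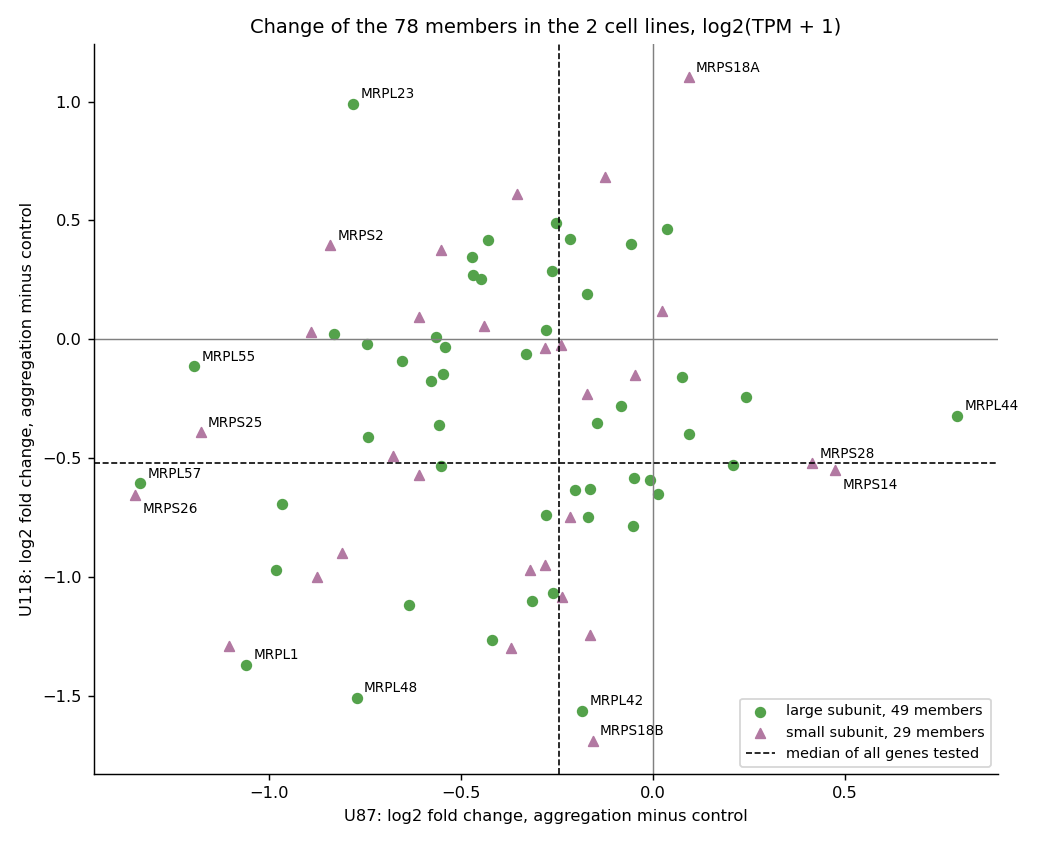
Log2 fold change (aggregation minus control, log2(TPM + 1)) of each of the 78 members in U87 (x axis) and U118 (y axis), with MRPL members as green circles and MRPS members as purple triangles. Grey lines mark 0 and dashed lines the median of all genes tested, at -0.24 and -0.52; 47 members lie below 0 in both lines, and MRPL23 lies at -0.78 in U87 and 0.99 in U118.

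Members that are neighbours in the genome moved alike only in part. Members lie on 21 chromosomes, and 7 neighbouring pairs lie within 1000 kb. MRPL46 and MRPS11 are divergent genes on chromosome 15 whose ends are 33 bases apart in GENCODE release 29, and the bases between them (chr15:88467420-88467452, plus strand) hold none of the 3 motifs.
MRPL46 and MRPS11: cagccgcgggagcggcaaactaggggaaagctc
MRPS11, the counterpart of bacterial S11, went from 68.5, 62.9 and 53.8 TPM to 40.3, 47.0 and 37.9 TPM in U87 (log2 fold change -0.55, SE 0.13, adjusted p = 0.0129 in limma) and stood at 52.9, 52.6 and 52.9 TPM in control and 58.6, 74.6 and 74.4 TPM in aggregation in U118 (0.37, SE 0.20, adjusted p = 0.141). It did not pass in U87 without aggregation library 3 (-0.49, adjusted p = 0.0507) or after median-ratio scaling (-0.29, adjusted p = 0.199), and it passed in U118 after that scaling (0.93, adjusted p = 0.025). MRPL46 stood at -0.26 (SE 0.16, adjusted p = 0.231) and 0.29 (SE 0.26, adjusted p = 0.371), so its values had the signs of its neighbour without passing the test. The 2 members of chromosome 16, MRPL28 and MRPS34, fell in both lines, by 0.32 each in U87 and by 1.10 and 0.97 in U118 on the log2 scale, and neither passed in either line after median-ratio scaling (adjusted p = 0.796 and 0.744 in U87, 0.188 and 0.316 in U118). They are not among the neighbouring pairs. On chromosome 6, by contrast, MRPS18A stood 425662 bases from MRPL14 and 611496 bases from MRPL2, whose U118 values were 0.40 and -0.53.

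The U118 changes of the members varied with base composition and level. The transcripts used here had a median length of 1516 bases, against 2942 bases for all coding genes. In U118, the 26 members with the lowest GC content (35.0 to 45.6%) had a median log2 fold change of -0.67 with 2 of 26 above 0, the middle 26 a median of -0.30 with 7 above 0, and the 26 with the highest GC content (53.0 to 71.9%) a median of 0.02 with 14 above 0. In U87 the medians were -0.26, -0.38 and -0.34 in the same order. Spearman's rho of the U118 change with GC content was 0.42 over the 78 members and 0.32 over 12315 coding genes tested, and in U87 it was -0.09 and 0.03. With the mean level over the 12 libraries, rho of the U118 change was 0.41 over the members and 0.18 over coding genes, and in U87 it was 0.15 and -0.04. These are descriptions, and the part of GC content or level in the U118 changes was not tested.

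Of the 5 mitochondrial ribosomal proteins with other names (DAP3, PTCD3, AURKAIP1, CHCHD1 and GADD45GIP1), CHCHD1 fell in U87 from 115, 115 and 109 TPM to 69.0, 69.0 and 66.9 TPM (log2 fold change -0.72, SE 0.07, adjusted p = 0.000372 in limma). PTCD3, which is also a small subunit protein, fell in U118 from 33.8, 27.4 and 36.3 TPM to 23.9, 8.17 and 12.03 TPM (-1.21, SE 0.35, adjusted p = 0.0185). The others passed in neither line as deposited, with DAP3, a GTP-binding small subunit protein, at -0.01 in U87 and -0.76 in U118 (adjusted p = 0.923 and 0.0616). The highest U118 value of the 5 was 0.85. After median-ratio scaling the highest was 1.40, and that gene was called higher in U118. With that scaling 1 of the 5 fell and 1 rose past the adjusted p there, beside 25.1% and 23.3% of all genes. The interaction term as deposited was past the adjusted p for 1 of the 5, at 1.57.

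The ribosomal RNAs of the particle rose in both lines. MT-RNR1, the RNA of the small subunit, rose from 681, 844 and 667 TPM to 1409, 1444 and 1433 TPM in U87 (log2 fold change 0.98, SE 0.10, adjusted p = 0.000465 in limma). MT-RNR2, the RNA of the large subunit, rose from 1305, 2070.0 and 1465 TPM to 5136, 5534 and 5507 TPM (1.77, SE 0.16, adjusted p = 0.000338). In U118 they rose by 1.61 (SE 0.32, adjusted p = 0.00318) and 1.54 (SE 0.41, adjusted p = 0.0128). These RNAs have only short A tails and the libraries were made with a kit for mRNA, so their TPM is no measure of the amount of ribosome. Of the 13 mitochondrially encoded mRNAs, which the particle translates, all 13 rose past the adjusted p in U87, beside 9.43% of all genes. Their median was 0.61. In U118 all 13 were above 0 with a median of 1.01, and 2 passed the adjusted p, beside 12.2% of all genes. The mitochondrial share of the U118 libraries ranged widely. The summed TPM of these mRNAs was 13.8 to 19.8 times that of the members in U87 control and 33.4 to 36.2 times in U87 aggregation. In U118 it was 7.95 to 28.7 times in control and 13.1 to 44.4 times in aggregation, so the groups overlapped.

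Among the factors that build and serve the particle, more genes fell than rose past the adjusted p in both lines, as among all genes (29.7% and 9.43% in U87, 39.1% and 12.2% in U118). After median-ratio scaling this held in U87 for assembly factors and regulators only, and the U118 medians of these 4 lists moved from between -0.52 and -0.41 to between 0.01 and 0.07. Of 24 assembly factors, 9 fell and 1 rose in U87 and 8 fell in U118, where 4 fell and 4 rose after median-ratio scaling. DHX30, an RNA helicase needed for assembly, fell in U87 from 128, 116 and 111 TPM to 55.5, 50.5 and 50.1 TPM (log2 fold change -1.17, SE 0.09, adjusted p = 0.000171 in limma). YBEY, also of this list, rose in U87 from 14.1, 14.4 and 17.0 TPM to 26.7, 24.1 and 23.1 TPM (0.67, SE 0.12, adjusted p = 0.00535). RPUSD4, a pseudouridine synthase of MT-RNR2, had the largest fall of the list in U118 (-1.62, SE 0.30, adjusted p = 0.00201).

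Of 16 translation factors, 4 fell in U87 and 5 fell and 1 rose in U118. MTFMT, which formylates the initiator methionine, fell in U87 from 16.2, 19.2 and 18.1 TPM to 7.26, 9.27 and 7.003 TPM (-1.10, SE 0.15, adjusted p = 0.00163 in limma). SLIRP, which stabilises mitochondrial mRNAs with LRPPRC, rose in U118 from 115, 117 and 107 TPM to 272, 167 and 181 TPM (0.83, SE 0.23, adjusted p = 0.0163). Of 20 aminoacyl-tRNA synthetases, 7 fell and 1 rose in U87 and 5 fell and 2 rose in U118. NARS2 fell in U118 from 21.1, 21.4 and 15.2 TPM to 6.06, 2.84 and 3.71 TPM (-1.99, SE 0.29, adjusted p = 0.000577), and CARS2 rose there from 114, 114 and 83.4 TPM to 329.6, 253 and 289.9 TPM (1.48, SE 0.22, adjusted p = 0.000628).

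Of 14 regulators of mitochondrial transcription and biogenesis, 7 fell in U87, where their median was -0.60, and 3 fell and 1 rose in U118. TFB2M, a core mitochondrial transcription factor, fell in U87 from 14.2, 28.1 and 19.8 TPM to 6.49, 6.30 and 7.77 TPM (-1.42, SE 0.24, adjusted p = 0.00417 in limma). GABPA, the ETS-family subunit of GABP, fell in U118 from 12.1, 9.16 and 13.96 TPM to 4.62, 3.11 and 3.33 TPM (-1.44, SE 0.26, adjusted p = 0.00172). PPARGC1B, a coactivator of mitochondrial biogenesis, rose in U118 from 0.102, 0.121 and 0.0992 TPM to 3.25, 1.67 and 3.11 TPM (1.70, SE 0.21, adjusted p = 0.000244) and fell in U87 from 3.58, 3.53 and 3.48 TPM to 2.08, 1.65 and 2.47 TPM (-0.57, SE 0.15, adjusted p = 0.0232).

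Set beside cytosolic ribosomal proteins and respiratory chain subunits, the members had the lowest median in both lines. In U87 the median change was -0.32 for the 78 members, -0.20 for 77 cytosolic ribosomal proteins and -0.11 for 79 nuclear-encoded subunits of the respiratory chain. In U118 it was -0.36, -0.01 and 0.28. The medians of translation factors (-0.40 in U87 and -0.47 in U118) and regulators (-0.60 and -0.41) were lower than those of the members. Those of assembly factors (-0.28 and -0.52) and aminoacyl-tRNA synthetases (-0.27 and -0.45) were lower in U118 only. Past the adjusted p in limma, 34 cytosolic ribosomal protein genes fell and 5 rose in U87, and 24 respiratory chain genes fell and 10 rose, beside 35 and 2 of the 78 members and 29.7% and 9.43% of all genes. In U118, 6 cytosolic ribosomal protein genes fell and 2 rose, beside 39.1% and 12.2% of all genes. After median-ratio scaling 3 fell and 23 rose there, beside 25.1% and 23.3%. Of the respiratory chain genes, 6 fell and 18 rose in U118 as deposited, and 2 fell and 49 rose after that scaling. ATP5MC1, a subunit of the ATP synthase ring, rose in U118 from 145, 134 and 85.4 TPM to 436, 299 and 325 TPM (log2 fold change 1.55, SE 0.26, adjusted p = 0.00137 in limma). It fell in U87 (-0.50, SE 0.07, adjusted p = 0.00236). The order of the medians of members, cytosolic ribosomal proteins and respiratory chain subunits was the same after median-ratio scaling. They were -0.06, 0.06 and 0.15 in U87 and 0.20, 0.56 and 0.84 in U118, and the difference between families was not tested.

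In bulk libraries, fewer cells of a kind and less RNA per cell cannot be told apart, and this holds for all levels above. Counting could also be uncertain where genes share sequence or position. The annotation held 75 pseudogenes named after members, which summed to 4.70 to 17.1 TPM per library, and 2 of them averaged at least 1 TPM, MRPL45P2 at 4.87 TPM and MRPS31P4 at 2.72 TPM, next to MRPS31 at 5.45 to 16.7 TPM over all libraries. Of the members, 49 overlapped another annotated gene, 37 of them a gene on the opposite strand, and the library kit is not stated to keep strand.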

How the data were processed

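Gene-level TPM tables of U87 and U118, as deposited, were used, with 6 libraries each. The authors made mRNA libraries from total RNA, and the submitters' processing notes name FastQC 0.11.2, Trimmomatic 0.36, HISAT2 2.0, bedtools 2.26.0 and the build GRCh38, whereas the step that gave TPM is not given in the sources used here. TPM holds no counts, so depth, counting intervals and count models were out of reach, and the 3 libraries of a group limit the precision.

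Values were transformed to log2(TPM + 1). Genes reaching 1 TPM in 3 or more libraries of a fit were tested with limma 3.58.1 (R 4.3.3, lmFit and eBayes with trend), aggregation against control within each line, and with an interaction term over all 12 libraries, with Benjamini-Hochberg adjustment over all genes tested. The fit was tested on simulated data. Median-ratio scaling was done within a line. Gene positions, transcript lengths and GC content came from GENCODE release 29 and promoter windows from RefSeq (GRCh38.p14). Summaries and plots used Python 3.11.15, pandas 2.3.3 and matplotlib 3.10.9.

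Members and lists were chosen with earlier results of these data known. Members were given by library if they were among the 5 largest rises or falls in a line, the 4 highest or 4 lowest means, or the 5 smallest interaction p-values, or were MRPS18 paralogues or had a described role, and from other lists up to 4 extreme genes were given. MRPL28, MRPL34, MRPL46, MRPL47, MRPS10, MRPS34, DAP3, the mitochondrial rRNA and the U87 values of PPARGC1B and ATP5MC1 were added after their values were seen. Alternatives were other pseudocounts, filters and scalings, no trend, a replicate block and leaving out libraries.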

Additional observations from a re-analysis of the deposited data

Results flagged for a closer look

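The U118 and U87 changes of 22 members differed past the adjusted p of limma's interaction term over 12 libraries, beside 38.1% of all genes tested, which is what singled them out, and 16 of them are members given by library. The difference is the U118 change minus the U87 change in log2(TPM + 1). It was 1.77 for MRPL23, 1.24 for MRPS2, 1.08 for MRPL55, 1.01 for MRPS18A, 0.93 for MRPS11, 0.82 for MRPL12, 0.74 for MRPL38, 0.73 for MRPL57 and 0.70 for MRPL37. It was -1.53 for MRPS18B, -1.38 for MRPL42, -1.11 for MRPL44, -1.03 for MRPS14, -0.94 for MRPS28, -0.93 for MRPS9 and -0.74 for MRPL2. MRPL12, MRPL2, MRPL38 and MRPS14 no longer passed when certain single libraries were left out (adjusted p = 0.0517 to 0.105), nor did MRPS28 without U118 aggregation library 3 (-0.84, adjusted p = 0.0504). All of these values rest on U118 aggregation libraries that resembled the U87 libraries, and the part of this in the differences was not tested. Groups of 3 libraries were too small to test for single libraries far from the rest.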

How the results depend on the processing

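The count of members called lower in U87 went from 6 to 2 and called higher from 0 to 1 after median-ratio scaling. All genes went from 7.79% called lower and 3.03% called higher to 3.92% and 4.76%. Past the adjusted p in U87, the 35 lower became 14 after median-ratio scaling, and the 2 higher became 1 with no filter, 6 after median-ratio scaling and 4 without mitochondrially encoded genes, and were 1 to 2 when single libraries were left out. Among all genes in U87, 29.7% lower and 9.43% higher past the adjusted p became 17.2% and 15.7% after median-ratio scaling. The U87 relative median of -0.07 was -0.28 with no filter and ran from -0.14 to -0.0295 over single libraries left out. In U118 the 12 called lower became 2 after median-ratio scaling and 10 to 20 over single libraries left out, and the 1 called higher became 5 after median-ratio scaling, 2 without mitochondrially encoded genes and 0 to 2 over single libraries. Past the adjusted p in U118, the 21 lower became 8 after median-ratio scaling and 13 to 40 over single libraries, and the 2 higher became 1 with no filter, 17 after median-ratio scaling, 7 without mitochondrially encoded genes and 1 to 7 over single libraries. The U118 relative median of 0.17 was -0.29 with no filter and 0.0300 to 0.26 over single libraries. Leaving out U118 control library 3 and aggregation library 1 together, chosen after seeing the data, gave 20 called lower and a relative median of 0.0174. Past the adjusted p, 55 were lower and 8 higher in that fit. The shares of all genes were 33.9% called lower and 58.9% lower and 12.6% higher past the adjusted p. The 22 differences between the lines became 14 to 37 over single libraries, with the shares of all genes given above. The log2 difference of summed levels moved in U87 from -0.34 to -0.0755 with median-ratio scaling and -0.20 without mitochondrially encoded genes, and in U118 from -0.23 to 0.33 and -0.0279. No filter brings in low genes, whose changes are near 0, and the cause of the other shifts was not tested.

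Of 1249 values of named members under an alternative, 32 changed sign, and 0 of these had been past the adjusted p as deposited. With median-ratio scaling the U87 values became 0.0086 for MRPL38, 0.0451 for MRPL41, 0.0225 for MRPL42, 0.10 for MRPS18B and 0.14 for MRPS33, and the U118 values 0.0226 for MRPL2, 0.22 for MRPL44, 0.31 for MRPL45, 0.16 for MRPL51, 0.44 for MRPL55, 0.15 for MRPS25, 0.0311 for MRPS28 and 0.0228 for MRPS31. Scaled by the summed members, U87 values were 0.0832 for MRPL38, 0.12 for MRPL41, 0.0752 for MRPL42, 0.18 for MRPS18B, 0.0445 for MRPS18C and 0.21 for MRPS33, and MRPL55 was at 0.11 in U118. Without mitochondrially encoded genes MRPS33 was at 0.0109 in U87 and MRPL55 at 0.0818 in U118. Without the 2 U118 libraries MRPS16 was at -0.42 (adjusted p = 0.0429 in limma), the one sign change past the test. With single libraries left out, MRPS16 ran from -0.30 to 0.23, MRPS30 from -0.0466 to 0.15 and MRPL55 from -0.27 to 0.099 in U118, and MRPL50 from -0.25 to 0.37 and MRPL42 from -0.43 to 0.000901 in U87.

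A fit with the replicate number as a block gave 33 lower and 2 higher in U87, beside 23.6% and 7.36% of all genes. It gave 25 and 3 in U118, beside 43.9% and 12.9%. There were 22 differences between the lines, beside 21.8% of all genes more negative and 14.9% more positive. No count moved by more than 1.5 times. Deviations of libraries with the same number correlated at 0.0113, -0.0671 and -0.0399 in U87 and at 0.139, 0.0512 and 0.0953 in U118, so the numbers were not taken to pair libraries, although each U118 library correlated best with its own number, a hint from the data. TPM does not tell how far depth limits the low members.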
